A study of Mus musculus with 9 samples.

Results

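The 500 most accessible autosomal peaks of age-associated B cells were examined. They were chosen by their mean log2 value over all 9 samples, as the 500 highest, out of 60158 autosomal peaks (0.831%) and 61540 peaks in all. A further 15 peaks, 11 on chromosome X and 4 on Y, lay above the lowest member and were left out by the rule. The assay was ATAC-seq, which reads open DNA by letting a transposase cut and tag it. Flow cytometry had isolated the cells from spleen. Such B cells increase in ageing and lupus and are known for the transcription factor T-bet and the integrin CD11c. The animals were 20-week-old MRL/lpr mice, whose Fas mutation all groups shared, rebuilt as mixed bone-marrow chimeras from 3 kinds of marrow. The groups were cells lacking Toll-like receptor 9 (TLR9-/-, here KO), cells with the P915H form of that receptor, and wild-type (WT) cells, with 3 samples each. TLR9 senses DNA in endosomes, and P915H is a change in its signalling domain known to uncouple it from the adaptor MyD88. The labels do not say whether samples with the same replicate number came from 1 chimeric animal, so the spread behind the p-values may be technical.

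Open chromatin at gene starts is kept by transcription factors that displace nucleosomes. One of them is NF-Y, a trimer with histone-like subunits that binds CCAAT boxes upstream of start sites and is known to keep promoters free of nucleosomes in many cell types. In B cells that become antibody-secreting cells, the unfolded protein response raises chaperones of the endoplasmic reticulum through the stress element, a CCAAT box followed after a fixed gap by the letters CCACG. ATF6 is known to bind the last part together with NF-Y at the box.

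The CCAAT box stood in 83.8% of member promoters and the whole stress element in 1.5%. Sequences upstream of 9 members are shown, 5 with the stress element and the rest with several CCAAT boxes. They come from RefSeq, build GRCm38.p6, are written 5′ to 3′ on the strand of the gene, and end at the base before the annotated start site. In the first set capitals mark the whole stress element (CCAAT, 9 bases of any kind, then CCACG) on either strand. By its construction each element also holds a CCAAT box.
Hspa5 (chr2:34771840-34772089, plus strand): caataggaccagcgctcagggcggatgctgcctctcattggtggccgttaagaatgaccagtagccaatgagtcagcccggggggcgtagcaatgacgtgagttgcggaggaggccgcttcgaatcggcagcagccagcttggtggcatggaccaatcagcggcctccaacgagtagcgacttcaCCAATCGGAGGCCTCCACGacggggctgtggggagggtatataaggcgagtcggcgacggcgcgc
Hsp90b1 (chr10:86705445-86705694, minus strand): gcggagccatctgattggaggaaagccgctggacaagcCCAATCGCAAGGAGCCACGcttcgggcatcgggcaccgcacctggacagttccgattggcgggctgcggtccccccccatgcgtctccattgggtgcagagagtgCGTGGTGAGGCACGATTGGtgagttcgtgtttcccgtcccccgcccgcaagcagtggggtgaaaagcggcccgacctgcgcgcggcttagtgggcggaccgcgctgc
Calr (chr8:84846932-84847131, minus strand): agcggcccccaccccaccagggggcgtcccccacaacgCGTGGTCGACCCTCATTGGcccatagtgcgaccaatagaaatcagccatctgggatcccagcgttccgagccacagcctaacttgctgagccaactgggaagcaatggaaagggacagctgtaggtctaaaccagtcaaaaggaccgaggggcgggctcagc
Derl3 (chr10:75893198-75893397, plus strand): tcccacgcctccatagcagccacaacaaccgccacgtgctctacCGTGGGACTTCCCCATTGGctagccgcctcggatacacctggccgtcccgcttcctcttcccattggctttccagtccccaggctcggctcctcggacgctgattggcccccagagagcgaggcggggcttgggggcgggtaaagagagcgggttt
Alg12 (chr15:88819319-88819568, minus strand): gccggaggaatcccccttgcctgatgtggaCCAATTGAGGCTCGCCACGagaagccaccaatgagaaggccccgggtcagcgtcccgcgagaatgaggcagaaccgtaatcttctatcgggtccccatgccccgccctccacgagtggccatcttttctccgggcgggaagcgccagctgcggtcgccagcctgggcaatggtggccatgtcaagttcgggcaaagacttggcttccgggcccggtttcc

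In the second set capitals mark CCAAT boxes on either strand (ATTGG where the box lies on the other strand). Fam72a, Derl2, Hmgb2 and Glrx5 were printed as promoters with several boxes, chosen after their sequences were seen. Derl2 takes part in exporting misfolded proteins from the endoplasmic reticulum, Hmgb2 is a DNA-bending chromatin protein, and Glrx5 serves iron-sulphur cluster assembly.
Fam72a (chr1:131527703-131527902, plus strand): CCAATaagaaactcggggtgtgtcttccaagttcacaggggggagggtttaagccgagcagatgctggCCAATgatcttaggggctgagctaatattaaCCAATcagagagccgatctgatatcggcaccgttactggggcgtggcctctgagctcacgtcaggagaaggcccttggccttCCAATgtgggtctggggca
Derl2 (chr11:71019304-71019503, minus strand): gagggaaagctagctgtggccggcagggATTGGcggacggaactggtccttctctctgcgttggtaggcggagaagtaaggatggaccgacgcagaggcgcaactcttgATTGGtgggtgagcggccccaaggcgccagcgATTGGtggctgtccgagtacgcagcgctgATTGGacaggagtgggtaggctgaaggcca
Hmgb2 (chr8:57511643-57511842, plus strand): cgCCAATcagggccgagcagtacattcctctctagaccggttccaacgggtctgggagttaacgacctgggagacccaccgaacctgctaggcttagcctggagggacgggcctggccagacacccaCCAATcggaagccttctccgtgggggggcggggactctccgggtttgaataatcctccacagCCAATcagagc
Glrx5 (chr12:105032418-105032617, plus strand): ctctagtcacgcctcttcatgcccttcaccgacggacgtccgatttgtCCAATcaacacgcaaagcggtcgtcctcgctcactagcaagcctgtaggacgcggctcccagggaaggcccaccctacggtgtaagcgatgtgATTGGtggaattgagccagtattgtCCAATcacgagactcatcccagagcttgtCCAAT

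The mean levels ran from 9.83 to 6.75 on the log2 scale, an 8.5-fold range of the antilog values. Levels chose the members and are given as a description. The 3 lowest members, at Pkd2l1, Mdm1 and Gm51425, had 6.7468, 6.7456 and 6.7455, and the 3 peaks just outside, at Srp54b, Cks2 and Mrps27, had 6.7454, 6.7439 and 6.7422. The line at 500 thus falls within a continuous series. The members formed 456 separate loci when peaks within 10 kb were joined, and 26 loci held 2 or more members (70 members). The median member was 211 bp long (116 to 1063), beside 215 bp for all peaks, and the values are not scaled to length.

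Most members lay at gene starts. A start site lay within 1 kb of 334 members (66.8%), beside 28.7% of autosomal peaks. A further 55 (11.0%, against 12.2%) lay within 1 kb of an end of an annotated gene, 44 (8.8%, against 39.2%) inside a gene, 55 (11.0%, against 19.5%) outside genes but within 100 kb, and 12 (2.4%, against 0.354%) farther away. The table of start sites is incomplete, so some gene-end members may be start sites. Among the 25 strongest members the order was different, with 1 at a start site, 6 at a gene end, 5 inside genes, 8 outside and 5 over 100 kb away.

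**Figure D1:**
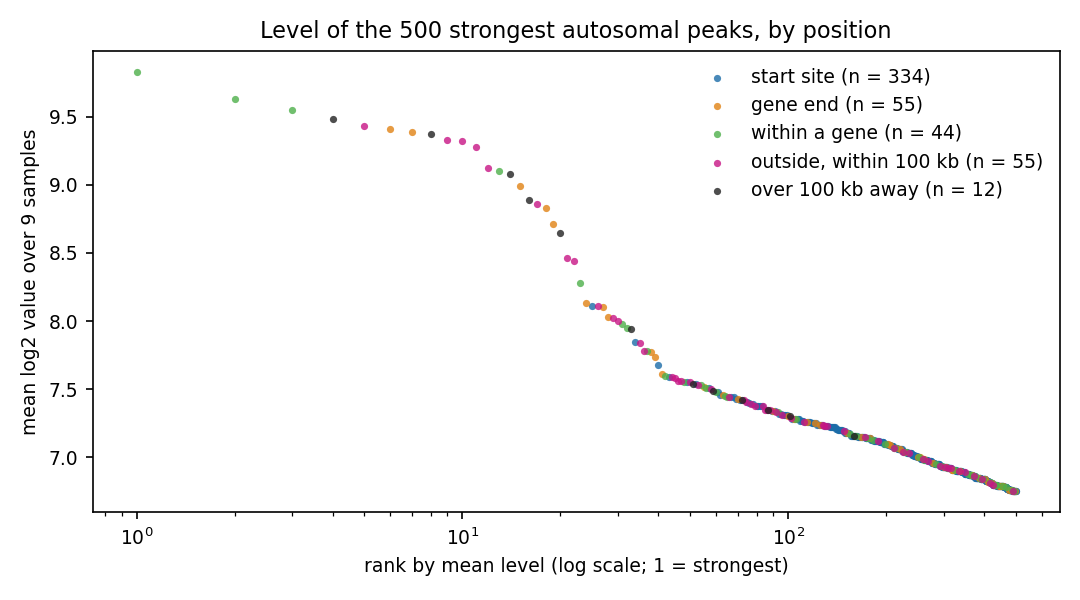
Mean log2 value over 9 samples (vertical axis) against rank on a log axis for the 500 members, coloured by position. The 25 strongest ranks, from 9.83 downward, hold 1 start-site member, whereas 334 of the 500 lie at start sites.

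The strongest start-site members belonged to Desi2 (8.11), Sp110 (7.85), Dynlt1f (7.68), Zmym5 (7.59) and Mxd4 (7.55). Sp110 encodes a nuclear body protein, Dynlt1f a dynein light chain and Mxd4 a repressor that competes with Myc. Start-site members were centred upstream of the start, at a median of -107.75 bp, and 86.8% of the centres lay upstream. The other 16951 start-site peaks had a median of -1.0 bp, with 50.1% upstream. Start sites on opposite strands that faced away from each other within 1 kb were found at 84 of the 334 members (25.1%), beside 12.9% of the other start-site peaks. That share went from 9.97% of start-site peaks with a level under 3 to 19.9% of those at 6 and over outside the 500. Derl2 with Mis12, Alg12 with Creld2 and Fto with Rpgrip1l were such pairs, and a peak between 2 starts cannot be given to either gene.

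Of 20 letter patterns counted, the CCAAT box was the most frequent in member promoters. In windows of 300 bp (250 bp before to 50 bp after the start), read on both strands, CCAAT stood in 279 of 333 member promoters (83.8%), and 65.8% held at least 2. The box stood in 36.2% of 11044 promoters with another start-site peak, of which 12.7% held at least 2, and in 37.3% of all 31396 autosomal promoters. Its letters in reverse order, TAACC, stood in 21.3% of member promoters and 22.4% of the others with a peak. The longer form AGCCAAT, which contains the box, stood in 40.8% against 9.82%. Across start-site peaks the share with CCAAT was 29.5% at a level under 3, 28.2% at 3 to 4, 30.0% at 4 to 5, 42.2% at 5 to 6, 66.8% at 6 to 6.75 and 83.8% in the members. Limited to windows with 55 to 65% G and C, it was 29.9% in the lowest class and 85.8% in the members. Median G and C content was 60.0% in member windows and 61.0% in the others with a peak. A match of letters is a description, not a bound site.

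**Figure D2:**
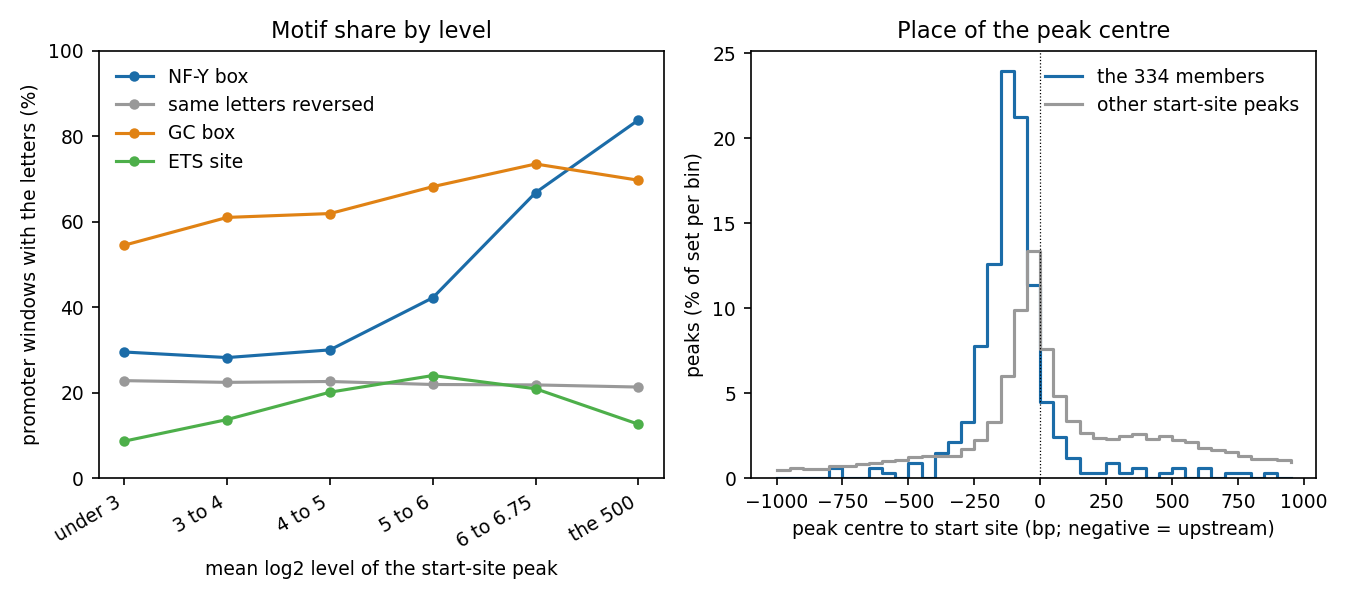
Left, share of promoter windows (%) with each motif against the mean log2 level of the start-site peak, where NF-Y box stands for CCAAT. The NF-Y box goes from 29.5% to 83.8% while its reversed letters stay between 21.3% and 22.8%. Right, distance in bp from peak centre to start site as a share of each set per 50 bp, with the 334 members centred upstream (median -107.75).

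Boxes were sought only in the 300 bp window, so their distance from a peak centre also depends on where that peak is centred. The median box stood 96 bp upstream of the start in member promoters and 83 bp upstream at other start-site peaks. In members 40.4% of boxes lay 120 to 40 bp upstream, beside 41.9% at the others. The median distance from the peak centre was 64.5 bp in members, with 39.6% of boxes within 50 bp of it. At other start-site peaks, which were less often centred upstream, the median distance was 174 bp and 26.6% were within 50 bp. These distances are a description. Neighbouring boxes in members had a median spacing of 46 bp. The most common spacing was 32 bp (22 of 488 neighbouring pairs), and 86 pairs were 28 to 36 bp apart. Spacing in other promoters was not counted. Other letters differed in both directions. The GC box GGGCGG stood in 69.7% of member promoters and 62.8% of the others with a peak, and the ZNF143 site (ACTACA followed at once by ATTCC) in 2.7% and 0.534%. The ETS site CCGGAAG stood in 12.6% and 17.4%, the NRF1 site (GCGCA, 1 base of any kind, GCGC) in 4.8% and 10.1%, and the full cyclic AMP site TGACGTCA in 0.3% and 3.3%. That full site was found in only 1 member window. The shorter cyclic AMP pattern TGACG, which the full site contains, went the other way, with 42.9% of member promoters and 31.0% of the others with a peak. Of patterns known from immune cell enhancers, the PU.1 site GAGGAAGT stood in 3.6% and 3.38%, the octamer ATTTGCAT in 2.4% and 1.53%, the Runx site TGTGGTTT in 0.601% and 1.29%, the interferon response element (GAAA, 2 bases of any kind, GAAA) in 1.8% and 3.23%, and the NF-kB site (GGGA, 1 base of any kind, TTTCC) in 0.3% and 0.534%. These rest on 1 to 12 member windows each.

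The stress element printed above was found in 5 member windows (1.5%), in 9 of 11044 promoters with another start-site peak (0.0815%) and in 36 autosomal windows in all. The 5 were Hspa5, which encodes the chaperone BiP; Hsp90b1, which encodes GRP94; Calr, which encodes calreticulin; Derl3, a part of endoplasmic-reticulum-associated degradation; and Alg12, a mannosyltransferase of glycan assembly. Hsp90b1 held 2 elements. The 34 genes with an element included 17 with a start-site peak, whose strongest peaks had a median level of 6.49, and 7 of the 17 shared the 5 member peaks. Outside the 500, Canx had 6.59 (rank 727), Dnajc3 6.49 (rank 891), Ero1b 6.35 (rank 1178), Syvn1 5.88 (rank 2605) and Pdia6 5.26 (rank 5850). These are genes of protein folding or quality control in the endoplasmic reticulum. Other genes with an element and a start-site peak outside the 500 were Pan2, Hnrnpa3, Gm39859, Adcy3 and Zfp57. Pan2 had 6.23 (rank 1474), Hnrnpa3 and Gm39859 each 5.28 (rank 5747) and Zfp57 1.39 (rank 58506), while Adcy3 was at rank 14894.

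None of these 5 member peaks passed the threshold in a genotype comparison. Hspa5 (peak chr2:34771835-34772052, mm10) had log2 values of 7.12, 7.02 and 7.10 in KO, 7.23, 7.31 and 7.11 in P915H, and 7.10, 7.12 and 7.24 in WT. KO and P915H samples overlapped by a narrow margin and WT lay across both. The KO minus P915H difference was -0.14 (SE 0.08, limma adjusted p = 0.305). Hsp90b1, which is also the chaperone that folds Toll-like receptors, had 6.94, 6.89 and 6.87 in KO, 6.98, 7.08 and 6.97 in P915H, and 6.93, 6.89 and 7.02 in WT. KO was below every P915H sample, with a difference of -0.11 (SE 0.07, limma adjusted p = 0.383). Differences at Calr (-0.07), Derl3 (-0.08) and Alg12 (-0.20) also missed the threshold.

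Of 24 gene lists, 10 held a gene with a member, and over all genes with a peak 2.9% had one. Plasmablast and plasma cell genes had 5 of 17 genes with a peak (Zbtb20, Hspa5, Hsp90b1, Ell2 and Creb3l2), and translation factors had 6 of 41 (Eif4g2, Eif5, Eif4a1, Eif5b, Eif3k and Etf1). Splicing genes had 4 of 64 (Hnrnpc, Sf1, Son and Ptbp1), chromatin regulators 4 of 50 (Sin3a, Hdac4, Arid4a and Arid4b), and antigen presentation 4 of 25 (H2-D1, H2-K1, H2-DMb2 and H2-DMa). NF-kB genes had Traf2 and Cyld, cytokine genes Stat3, ribosomal proteins Rpl13a alone among 79, and histones H2ac18. Lists were matched by symbol, and 34 of 56 histone symbols matched. Histone members that the list did not count included H2ac19 (7.43), H2ac23 with H2bc23 (7.26) and H4bc24 with H2ac24 (7.22). Some of these peaks serve 2 genes, as at Sin3a with 2700012I20Rik and Zbtb20 with 4932412D23Rik.

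No member lay at B cell identity transcription factors, where the strongest peak of any of the 26 genes was at Pou2af1 (6.23, rank 1470). The B cell receptor list reached 6.65 at Bcl10 (rank 630), the age-associated B cell list 5.48 at Itgb2 (rank 4478), and the type I interferon list 6.6 at Tyk2 (rank 704). All 5 B cell markers had a peak, with strongest levels from 4.58 to 6.1, as did all 5 age-associated B cell markers, from 3.57 to 4.85. The 2 markers listed as lost in age-associated B cells also had a peak. Cr2 had 4.93 (rank 8157), above all 5 age-associated markers, and Fcer2a had 1.11. Markers of other cell types also had peaks. There were 3 of 5 for T cells (up to 5.87 at Cd3d), 4 of 5 for macrophages and monocytes (up to 4.23 at Csf1r), 3 of 4 for dendritic cells (up to 4.95 at Zbtb46), 2 of 3 for natural killer cells (up to 2.92 at Klrb1c), 1 of 3 for erythroid cells (4.47 at Klf1) and 0 of 4 for neutrophils. In the longer neutrophil list 2 of 10 genes had a peak, up to 3.39 at Mmp9. No member lay at any of these markers, and their part in the results was not tested. The peak over Tlr9 (level 5.997, rank 2179) was not called in any comparison, nor was a second peak there (level 3.475, rank 23646). KO minus P915H was -0.153 at the first and 0.164 at the second.

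The class I genes H2-D1 and H2-K1 and the class II chaperone gene H2-DMb2 present or load antigen. H2-D1 (peak chr17:35262885-35263089) had 7.24, 7.21 and 7.21 in KO, 7.28, 7.26 and 7.15 in P915H, and 7.23, 7.29 and 7.39 in WT. The 3 groups overlapped. The NF-kB adaptor gene Traf2 had 6.83, 6.80 and 6.77 in KO, 6.93, 7.00 and 6.97 in P915H, and 6.96, 6.93 and 6.98 in WT. Every KO sample was below the other 6, but the differences of -0.16 from WT (SE 0.07, limma adjusted p = 0.251) and -0.17 from P915H (SE 0.07, limma adjusted p = 0.133) missed the threshold. The replication-dependent histone gene H2ac18 had 7.55, 7.46 and 7.52 in KO, 7.44, 7.49 and 7.58 in P915H, and 7.44, 7.48 and 7.33 in WT, again with overlap.

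The strongest peaks lay mostly away from gene starts, and many followed shared patterns across the 9 samples. No start-site member was in the sets drawn for these patterns, and a weaker likeness at start sites was not examined. These sets were drawn by a Pearson correlation of at least 0.95 with a chosen member over the 9 columns, which share library, scaling and a removed replicate effect, so they are descriptions without a test. Rank 1, inside Myo3a (chr2:22551723-22551926), had 9.76, 10.42 and 10.17 in KO, 9.98, 9.75 and 8.83 in P915H, and 9.77, 9.33 and 10.51 in WT. P915H replicate 3 was lowest, KO replicate 2 and WT replicate 3 were highest, and the groups overlapped. This pattern was shared by 37 members at 23 loci on 13 chromosomes, none at a start site, and 11 were among the 25 strongest. They included Gm13794 (9.48), Gm22273 (9.43), Cntnap2 (9.37) and Umpk-ps (9.32), named for the nearest gene.

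A different pattern was led by rank 6, at Gm10925 (chr1:24613329-24614392). It had 9.06, 9.54 and 10.36 in KO, 9.56, 8.94 and 8.19 in P915H, and 9.62, 9.75 and 9.69 in WT. KO replicate 3 was highest and P915H replicate 3 lowest, while the WT samples lay close together. RefSeq annotates Gm10925 as a pseudogene with mt-Atp6, the name of a mitochondrial gene, as a synonym, and 3 members lay within 1 kb of it. The pattern held 12 members at 6 loci, of which 10 were among the 25 strongest. Neither set had a called member in KO against P915H, at differences of 0.20 to 0.69 (SE 0.17 to 0.45) and 0.65 to 0.83 (SE 0.31 to 0.37).

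The pattern led by rank 32 was tighter. That peak, inside Fam155a (chr8:9554527-9554738), had 7.84, 7.65 and 7.83 in KO, 8.03, 8.14 and 7.96 in P915H, and 7.97, 8.06 and 8.05 in WT. Every KO sample was below the other 6. It was shared by 24 members at 24 loci on 14 chromosomes, none at a start site. Rank 32 was picked as the strongest member away from start sites that was called lower in KO than in P915H, so low KO values were built into the set. Their KO minus P915H differences were -0.37 to -0.23 (SE 0.07 to 0.12), and 7 of the 24 were called lower in KO (background 8.97%). The sources used here do not give how reads that match several places were handled, and the sequence of these peaks was not compared.

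**Figure D3:**
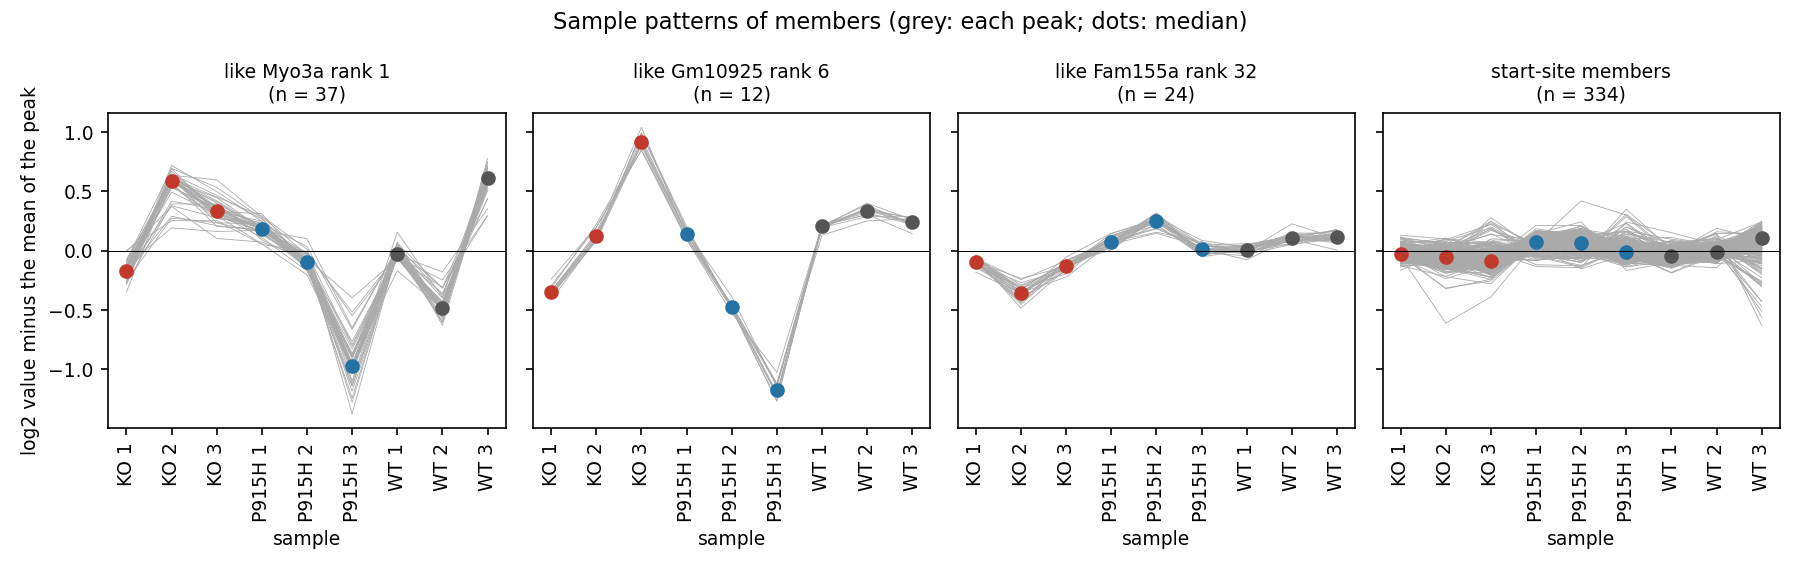
Log2 value of each peak minus its own mean (vertical axis) in the 9 samples for the 3 correlated sets (37, 12 and 24 members) and the 334 start-site members, with grey lines for peaks and dots for medians coloured by genotype. P915H 3 is lowest in the first and second set, KO samples are lowest in the third, and the medians of start-site members stay near 0.

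The members' share of the summed antilog signal was 6.83% in P915H replicate 3, the lowest, and 8.95% in WT replicate 3, the highest. Start-site members took 4.14% to 4.64%, whereas members away from starts and gene ends took 1.73% to 3.23%. The residual SD, left after genotype and replicate number, had a median of 0.09 at start-site members and 0.33 at those outside genes within 100 kb. Over all autosomal peaks it was 0.22.

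Several member loci were gene copies. At the interferon zeta locus on chromosome 4, 7 start-site members lay at Ifnz, Gm13272, Gm13285, Gm13287, Gm13288, Gm13289 and Gm13290, with levels from 6.78 to 6.93. The promoter windows of Gm13272, Gm13285 and Gm13287 were 100% identical, those of Ifnz and Gm13288 99.7% and those of Gm13289 and Gm13290 99.3%. Reads cannot be divided between identical copies, so these levels are uncertain. Gm13290 had 6.89, 6.92 and 6.97 in KO, 6.84, 6.87 and 7.02 in P915H, and 7.03, 6.96 and 6.77 in WT, with full overlap. The U3 small nucleolar RNA genes Rnu3b1 to Rnu3b4 held 4 members (6.93 to 7.14), and H2ac18 and H2ac19 had 7.48 and 7.43.

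Setting KO beside P915H compares cells without the receptor with cells whose receptor is known to be uncoupled from MyD88. Whether the receptor accounts for differences between them was not tested. In this comparison 22 members (4.4%) passed a limma adjusted p of 0.05, beside 15.5% of all peaks and 5.46% of the 6154 strongest. Of these, 5 were higher in KO (background 6.55%) and 17 lower (background 8.97%). The share of members called was therefore below that of all peaks and close to that of the 6154 strongest peaks. The excess of lower calls depended on the fit. Dropping P915H replicate 1 gave 15 higher and 7 lower calls, with 10 of the 22 among them. Higher and lower calls numbered 3 and 2 with no intensity trend, and also when KO lost replicate 2 or replicate 3. They numbered 3 and 1 when P915H lost replicate 2. When KO lost replicate 1 they numbered 15 and 28, and the remaining alternative fits also had more lower calls. In these bulk samples a change in the makeup of the cells and a change per cell cannot be told apart. At start sites 2 of 334 members passed (0.599%), beside 5.69% of all autosomal start-site peaks, and away from starts and gene ends 12 of 111 members did (10.8%), beside 21.4% of all such autosomal peaks. The median difference over start-site members was -0.10, with 95% of values between -0.23 and 0.08, beside 0.03 over all autosomal start-site peaks. Under quantile normalization these medians were -0.03 and 0.05, and with samples centred on their median -0.07 and 0.05. The number of members called was 67 without the replicate term, 5 without an intensity trend, 43 without KO replicate 1, 5 without KO replicate 2 or 3, 4 without P915H replicate 2 and 76 without WT replicate 3, of which 32 were at start sites.

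**Figure D4:**
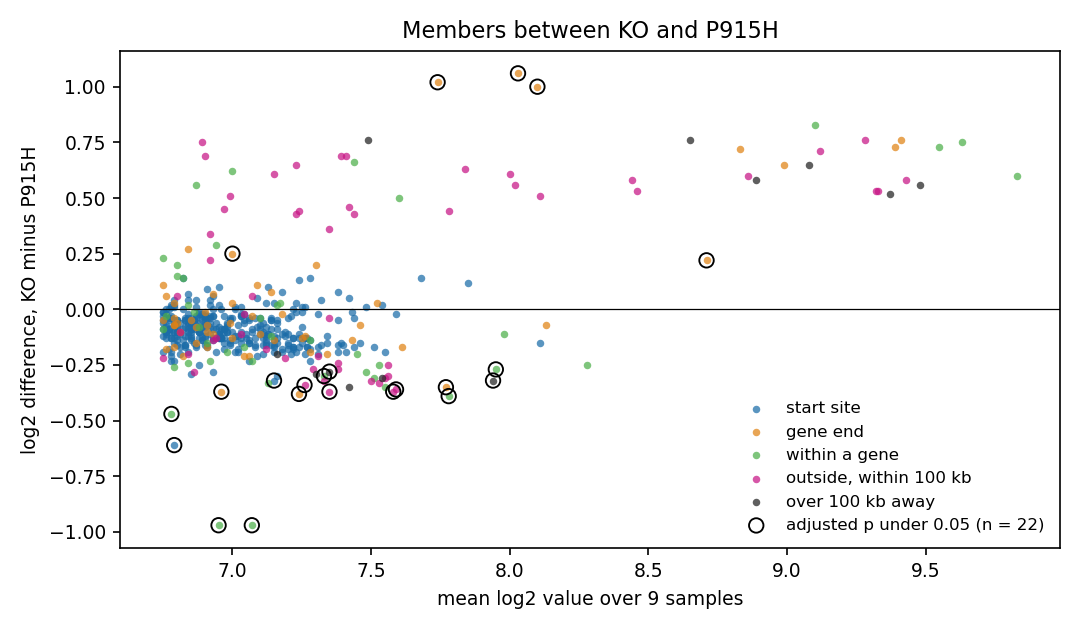
Log2 difference KO minus P915H against mean log2 value for the 500 members, coloured by position, with black rings on the 22 past a limma adjusted p of 0.05. Start-site members cluster at a median of -0.10, and the 3 rings near 1 are the members on chromosome 8.

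The largest higher differences were at 3 members on chromosome 8 beside the pseudogenes Gm10060 and 2610005L07Rik and the gene Gm40469. The 2610005L07Rik peak (chr8:20424712-20424920) had 8.48, 8.64 and 8.51 in KO, 7.60, 7.48 and 7.55 in P915H, and 8.22, 8.17 and 8.23 in WT. The 3 genotypes were fully separated, with KO highest and P915H lowest. KO exceeded P915H by 1.00 on the log2 scale, 2.0-fold (SE 0.07, limma adjusted p = 0.000156). The Gm40469 peak (chr8:20550177-20550386) had 8.48, 8.53 and 8.53 in KO, 7.46, 7.38 and 7.54 in P915H, and 8.15, 8.18 and 8.02 in WT, and the difference was 1.06 (SE 0.07, limma adjusted p = 0.000156). The Gm10060 peak (chr8:19784634-19784846) had 8.19, 8.22 and 8.26 in KO, 7.15, 7.12 and 7.34 in P915H, and 7.87, 7.87 and 7.60 in WT, and the difference was 1.02 (SE 0.09, limma adjusted p = 0.000436). All 3 stayed past the threshold in the 16 alternative fits.

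From the first to the last of these members lie 766 kb with 31 peaks. The genotype means had KO above WT and WT above P915H at all 31, and the KO minus P915H differences ran from 0.79 to 6.56. Of the 31, 25 passed the limma threshold as higher in KO than in P915H and none as lower. Against WT, 8 passed as lower in P915H and 0 passed in KO. The weakest peak there had a mean level of 0.26, where log2 differences are imprecise.

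**Figure D5:**
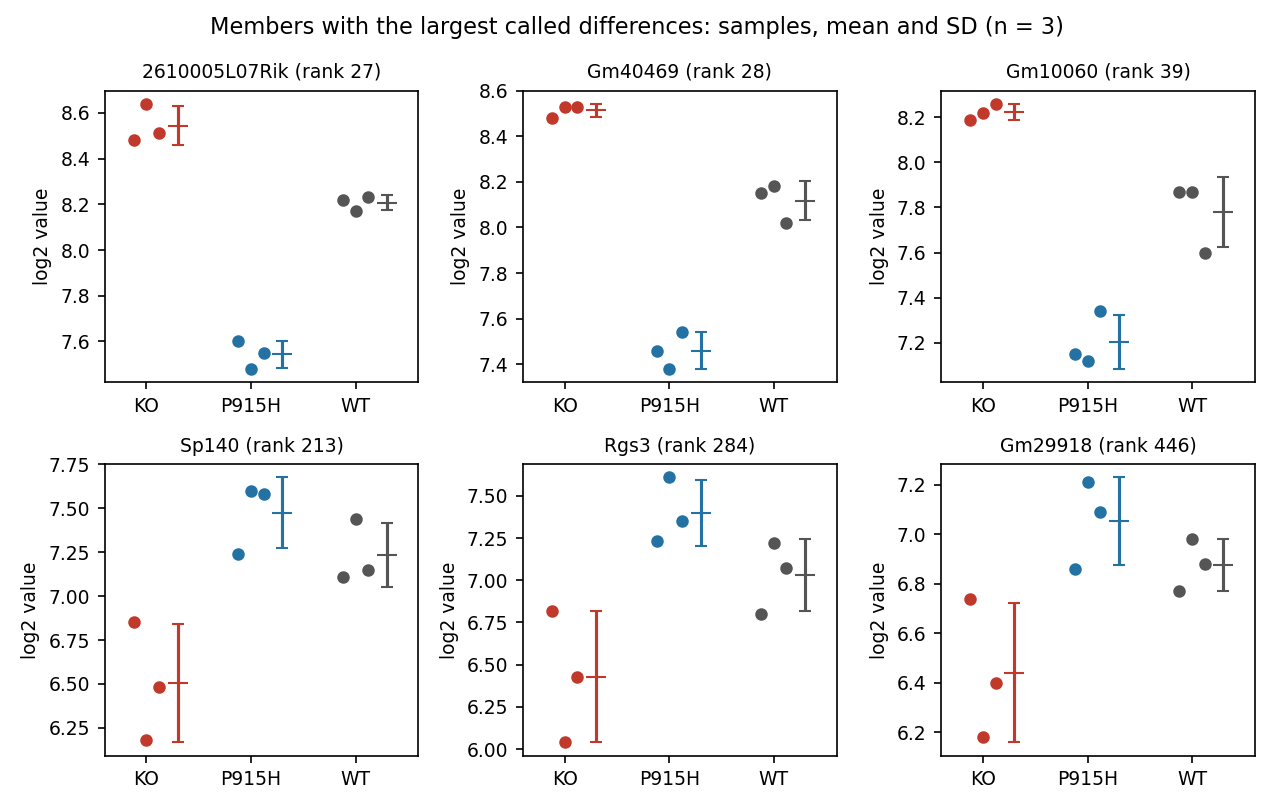
Log2 values of the 3 KO, 3 P915H and 3 WT samples (dots) with mean and SD (bars, n = 3) for 6 members with the largest called differences. The chromosome 8 members separate all 3 genotypes, and Sp140, Rgs3 and Gm29918 are lower in every KO sample than in every P915H sample.

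The members lower in KO were led by peaks inside Sp140 and Rgs3. Sp140 encodes a chromatin reader of immune cells, and Rgs3 a regulator that switches off G protein signals. The Sp140 peak (chr1:85617645-85617848) had 6.85, 6.18 and 6.48 in KO, 7.24, 7.60 and 7.58 in P915H, and 7.11, 7.44 and 7.15 in WT. Every KO sample was below the other 6, with KO minus P915H at -0.97 (SE 0.17, limma adjusted p = 0.0057) and KO minus WT at -0.73 (SE 0.17, limma adjusted p = 0.0728). The Rgs3 peak (chr4:62593802-62594007) had 6.82, 6.04 and 6.43 in KO, 7.23, 7.61 and 7.35 in P915H, and 6.80, 7.22 and 7.07 in WT. KO lay below P915H and overlapped WT at 1 sample, and the difference from P915H was -0.97 (SE 0.19, limma adjusted p = 0.00855). KO replicate 2 was the lowest sample at both peaks, and the lowest KO sample at every member called lower in KO. Without KO replicate 2 the lower calls numbered 2, and without P915H replicate 2 only 1 was left.

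The 2 start-site calls were Gm29918, a long noncoding RNA gene, and 9930111J21Rik2. Gm29918 (peak chr7:25576989-25577194) had 6.74, 6.18 and 6.40 in KO, 6.86, 7.21 and 7.09 in P915H, and 6.77, 6.98 and 6.88 in WT. KO was below every P915H and WT sample, and the difference from P915H was -0.61 (SE 0.15, limma adjusted p = 0.0194). 9930111J21Rik2 was lower by 0.32 (SE 0.09, limma adjusted p = 0.0385). The start-site member at 9930111J21Rik1 (rank 163) had nearly the same values in all 9 samples. Its difference of -0.30 (SE 0.09, limma adjusted p = 0.053) missed the threshold. The other lower calls ranged from -0.47 inside Mogat1 to -0.27 at Fam155a. Of the 17 lower calls, 7 belonged to the correlated set led by Fam155a, so they shared 1 sample pattern. Pisd-ps1, a pseudogene, had 8.84, 8.85 and 8.77 in KO, 8.65, 8.61 and 8.55 in P915H, and 8.65, 8.67 and 8.82 in WT. KO lay above P915H and overlapped WT. Its KO minus P915H difference was 0.22 (SE 0.06, limma adjusted p = 0.0408), and it turned to -0.36 under quantile normalization. Gm9481 had 7.14, 7.17 and 7.13 in KO, 6.90, 6.83 and 6.97 in P915H, and 6.95, 6.99 and 6.89 in WT, with KO above the other 6 samples and a difference from P915H of 0.25 (SE 0.07, limma adjusted p = 0.0426). Of the 16 alternative fits, 7 kept the Gm9481 call, 6 that at Pisd-ps1 and 11 that at Gm29918, while 16 kept Sp140 and 14 kept Rgs3.

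Against WT, P915H differed at 3 members (background 0.255%), all lower (background 0.252%) and all on chromosome 8. The differences were -0.66 at 2610005L07Rik (SE 0.07, limma adjusted p = 0.00656), -0.66 at Gm40469 (SE 0.07, limma adjusted p = 0.00796) and -0.58 at Gm10060 (SE 0.09, limma adjusted p = 0.0384). The count was 1 without P915H replicate 1 or WT replicate 2, and 0 without P915H replicate 2 or WT replicate 1, under quantile normalization, without the intensity trend, or with the 6 samples alone.

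KO against WT called 0 members by limma (background 0.0195%), while 50 members (10%) had an unadjusted p under 0.05, beside 18.7% of all peaks. The smallest adjusted p was 0.0592, at Gm40469, where KO exceeded WT by 0.40 (SE 0.07). The chromosome 8 members at 2610005L07Rik and Gm10060 had 0.33 (SE 0.07, limma adjusted p = 0.0636) and 0.44 (SE 0.09, limma adjusted p = 0.0641). The count was 22 without the replicate term and 10 without KO replicate 1. Whether a member called in 1 comparison differs from its value in another was not tested, and the comparisons share samples.

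The steadiest members by their genotype means were Pi4k2a, Gm5165, Aamp, Gm13290 and Ap3m2. Pi4k2a, a lipid kinase gene, had 6.75, 6.80 and 6.74 in KO, 6.80, 6.72 and 6.77 in P915H, and 6.73, 6.75 and 6.76 in WT. Its KO minus P915H difference was 0.00 (SE 0.07). They were picked for a small range, so their agreement is a description.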

How the data were processed

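ATAC-seq was measured in 9 samples, 3 per genotype. The authors deposited log2 values for 61540 peaks, whose antilogs sum to 987332 to 1014160 per sample, as for CPM of reads in peaks. Depth is thus unknown. The submitters' processing notes name MACS2, limma, SAMtools, Bowtie2 2.3.3, Picard 2.18.12 and Trim Galore 0.6.5, with build mm10. Normalization, peak calling on pooled or single samples, and the handling of mitochondrial or multiply matching reads are not given in the sources used here.

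Averaged over genotypes, each peak had equal values in replicate numbers 1 to 3 (largest difference 1.6e-14), so a replicate effect had been removed before deposit. The fit therefore had a term for the replicate number, which leaves 4 residual degrees of freedom. Whether the numbers pair animals cannot be checked in such values. The fit, checked on simulated data, used R 4.3.3 and limma 3.58.1 with an intensity trend on all 9 samples. P-values were two-sided, adjusted by Benjamini-Hochberg across the 61540 peaks without a filter, with a threshold of 0.05. Printed SEs come from the fit.

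Peaks were placed with RefSeq GRCm38.p6 start sites (32851 promoters) within 1 kb, then gene ends and gene bodies. Start sites on chromosome 18 were not used here, which touched 11 members. Plots were drawn in matplotlib 3.10.9, and tables made in pandas 2.3.3 with NumPy 2.4.6 (Python 3.11.15).

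The members, gene lists and tests were chosen with earlier results of these data known. The rule for named peaks took the 10 strongest, the 3 on each side of the line, up to 10 higher and 10 lower calls per comparison without overlap, the strongest and the smallest-p member of each list, the 5 members with the smallest and the largest range of genotype means, and the peaks at Tlr9. Other named peaks, the correlated sets and the chromosome 8 stretch were chosen after their values were seen. The alternatives changed the replicate term, scaling, filter, trend, sample weights, thresholds, the samples used, each sample left out, the choice of members and the start-site window.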

Additional observations from a re-analysis of the deposited data

How the results depend on the processing

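The position of the members changed little, with 323 to 341 of 500 at a start site under windows of 500 bp and 2 kb and the other choices of 500 members. Without the replicate block term the calls were 22 in KO against WT, 3 in P915H against WT and 67 in KO against P915H. That fit counts 6 residual degrees of freedom where the values hold 4. In KO against WT the 0 calls became 2 with samples centred on their median, 4 with sample weights and 4 at an adjusted p under 0.1. In P915H against WT the 3 calls became 0 under quantile normalization, 0 without an intensity trend, 0 with the 6 samples alone, and 5 when sex chromosomes entered the choice. In KO against P915H the 22 calls became 14 with centred samples, 5 without a trend, 51 with sample weights, 51 with the 6 samples alone, 47 at an adjusted p under 0.1 and 5 under 0.01. Quantile normalization gave 18 calls there, of which 15 were among the 22. Leaving out 1 sample gave 0 to 10 calls in KO against WT, 0 to 3 in P915H against WT and 4 to 76 in KO against P915H. Among named peaks 1 direction turned, Pisd-ps1 at -0.36 under quantile normalization. Read depth is unknown, and 4 residual degrees of freedom limit what could be called.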

Other observations

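Further start-site members are named here one by one. They were picked for a known role after their values were seen, so they stand for no pathway. Derl2 (7.46), Sel1l (7.18), Vcp (6.88) and Selenos (6.85) take part in the export of misfolded proteins from the endoplasmic reticulum, Edem3 (7.16) trims glycans there, Dnajb11 (7.12) encodes a chaperone partner, and Eif2ak3 (7.15) encodes the stress sensor PERK. The Derl2 peak is shared with Mis12. KO minus P915H was -0.15 at Derl2 (SE 0.08, limma adjusted p = 0.259) and -0.16 at Eif2ak3 (SE 0.09, limma adjusted p = 0.248), and neither passed the threshold. The kinesin gene Kifc1 had 7.15, the cyclin gene Ccnf 6.97, the ubiquitin-conjugating gene Ube2s 6.84, the spindle gene Tacc3 6.78 and Ube2c, also a ubiquitin-conjugating gene, 6.75. KO minus P915H was -0.21 at Tacc3 (SE 0.09, limma adjusted p = 0.164) and 0.03 at Kifc1 (SE 0.10, limma adjusted p = 0.894), and neither passed.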
